A study of Mus musculus with 12 samples.

Results

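The genes described here are 10 genes of the lipid droplet and of lipolysis, namely Plin1, Plin2, Plin3, Plin4, Plin5, Cidec, G0s2, Pnpla2, Lipe and Abhd5. They were taken by name and not by a measured value, though with earlier results of these data known. All 10 were found among the 22380 protein-coding genes of the mouse annotation. The study profiled H3K9me2 and H3K9me3 by ChIP-seq, the sequencing of DNA that an antibody pulls down with its histones, in brown (BAT) and subcutaneous white adipose tissue (WAT) of C57BL/6J mice. From 6 weeks of age the mice ate standard chow (SCD) or high-fat food (HFD), and no other treatment or allele is named. The methods state that the tissues were taken after 12 weeks of feeding. The age axis of the published weight curve stops at 12 weeks of age, so the length of feeding is uncertain. Each of the 8 combinations of diet, tissue and mark is 1 library with 1 list of peaks on the mm9 genome, and 4 input libraries, not used here, complete the 12 libraries. There were therefore no replicates, no difference between libraries was tested, and whether several animals were pooled in a library is not given in the sources used here. In the methods, the antibody listed for H3K9me2 is described as directed against tri methyl K9 and the one listed for H3K9me3 against di methyl K9, so the marks are named as in the library labels.

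Lipid droplets store triglyceride in fat cells. Perilipins coat the droplet, and the protein of Cidec lets droplets fuse and grow. Stored fat is released stepwise: the protein of Pnpla2 (ATGL) removes the first fatty acid with the help of its coactivator from Abhd5 (CGI-58), G0s2 encodes an inhibitor of ATGL, and Lipe encodes hormone-sensitive lipase, which acts on the diglyceride that remains. Plin1 in white and brown fat and Plin5 in tissues that burn fat tie the droplet coat to these lipases. H3K9me2 and H3K9me3 are histone marks best known from repressed chromatin.

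A list gives for each peak its position and a score. The score has no stated unit and was taken for the negative log10 of a p-value multiplied by 10, because its lowest value was 50 or 50.01 in 6 lists and 30 in both WAT lists of SCD-fed mice. It is not scaled between libraries, the read depth is not known, and a peak that is missing was not detected at the depth of its library. The lists held 21976 to 52758 peaks with a median GC content of 53.6% to 62.8%. In whole tissue the cells that carry a mark cannot be told apart. Markers were no check of the tissue either, since all 5 brown fat markers had a promoter peak of each mark in BAT and in WAT on at least 1 diet, and the counts in a tissue and mark were 1 to 3 of 4 white fat, 0 or 1 of 5 macrophage, 0 to 2 of 4 endothelium, 2 to 4 of 4 skeletal muscle and 0 or 1 of 4 lymphocyte markers.

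The following sequences of the mm9 reference show how the starts of these genes differ in CG dinucleotides, which are in capitals. Each promoter window runs from 250 bases before to 50 bases after the outermost coding start, on the strand of the gene. Abhd5 (chr9:122260476-122260775, plus strand) had the most CG of the 10 genes, Plin5 (chr17:56256970-56257269, minus strand) had a peak over its start in the most lists, and Plin1 (chr7:86877613-86877912, minus strand) had none there. The last coding exon of Plin1 (chr7:86866346-86866645, minus strand, its first 300 bases) is shown with them because peaks of 5 lists lay over it.
Abhd5 promoter: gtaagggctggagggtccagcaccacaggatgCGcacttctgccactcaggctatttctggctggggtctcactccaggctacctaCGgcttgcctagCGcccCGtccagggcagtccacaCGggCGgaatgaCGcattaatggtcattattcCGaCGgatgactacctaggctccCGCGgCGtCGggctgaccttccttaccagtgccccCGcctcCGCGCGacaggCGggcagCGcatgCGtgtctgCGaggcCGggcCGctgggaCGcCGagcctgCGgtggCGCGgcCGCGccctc
Plin5 promoter: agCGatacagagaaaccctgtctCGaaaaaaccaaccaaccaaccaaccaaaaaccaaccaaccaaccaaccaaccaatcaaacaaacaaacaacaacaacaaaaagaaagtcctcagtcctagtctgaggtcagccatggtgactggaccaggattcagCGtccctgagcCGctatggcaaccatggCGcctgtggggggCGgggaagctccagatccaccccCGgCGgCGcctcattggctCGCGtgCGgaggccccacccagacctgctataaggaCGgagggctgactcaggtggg
Plin1 promoter: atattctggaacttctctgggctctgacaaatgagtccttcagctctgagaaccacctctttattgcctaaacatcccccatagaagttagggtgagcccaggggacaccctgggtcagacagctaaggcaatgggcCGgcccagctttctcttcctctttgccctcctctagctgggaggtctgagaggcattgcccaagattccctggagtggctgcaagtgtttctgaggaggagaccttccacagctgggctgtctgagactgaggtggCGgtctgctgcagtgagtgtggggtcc
Plin1 last coding exon: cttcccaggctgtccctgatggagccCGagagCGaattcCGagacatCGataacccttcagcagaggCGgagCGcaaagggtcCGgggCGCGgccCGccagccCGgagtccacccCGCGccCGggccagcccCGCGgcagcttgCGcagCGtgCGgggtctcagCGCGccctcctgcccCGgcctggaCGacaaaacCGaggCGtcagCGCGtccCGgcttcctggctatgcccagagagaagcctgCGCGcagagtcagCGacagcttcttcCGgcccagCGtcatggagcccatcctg
These windows held 30 CG in Abhd5, 13 in Plin5 and 2 in Plin1, beside a median of 12 over the windows of 22375 protein-coding genes. The stretch of the last coding exon of Plin1 held 33.

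A promoter peak is a peak that touches the window of 3 kb before to 3 kb after an annotated start, with every start of the gene used. Of the 10 genes, 6 had a promoter peak in at least 1 list, as did 70.1% of all protein-coding genes, and none had one in all 8 lists (7.41% of all genes). They were the coat genes Plin2, Plin4 and Plin5 and the lipolysis genes G0s2, Pnpla2 and Abhd5. Plin1, Plin3, Cidec and Lipe had no promoter peak of either mark in either tissue on either diet, which held for 29.9% of all genes. In BAT, 3 of the 10 genes had a promoter peak of H3K9me2 in SCD-fed mice (43.3% of all genes) and 4 in HFD-fed mice (45.6%). For H3K9me3 in BAT the counts were 3 on SCD (52.3%) and 5 on HFD (58.9%). In WAT, 6 genes had a promoter peak of H3K9me2 on SCD (54.7%) and 2 on HFD (39.3%), and H3K9me3 gave 2 on SCD (18.9%) and 4 on HFD (35.9%). When the WAT lists of SCD-fed mice were held to a score of at least 50, as the other lists were, the counts on SCD became 3 for H3K9me2 (42.3%) and 0 for H3K9me3 (6.96%). The share of these genes was below that of all genes in the 4 BAT lists and in WAT H3K9me2 on HFD.

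**Figure D1:**
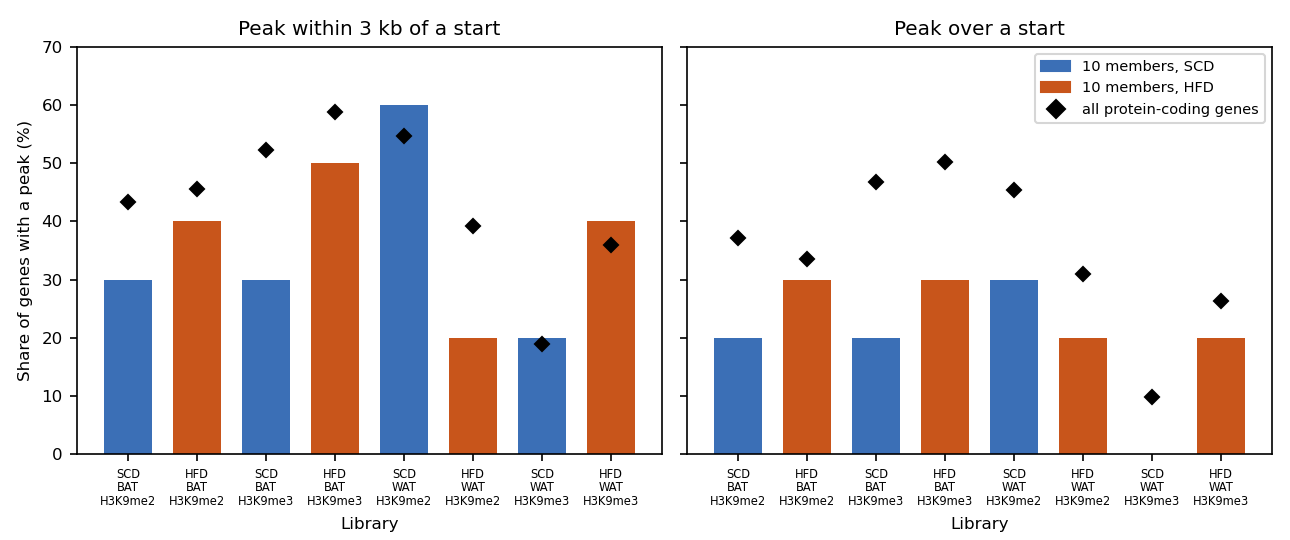
Bars show the share (%) of the 10 lipid droplet and lipolysis genes with a peak within 3 kb of a start (left) or over a start (right) in each of the 8 libraries, blue for SCD and orange for HFD, and diamonds show the share of all 22380 protein-coding genes. On the right every bar lies below its diamond, and the WAT H3K9me3 list of SCD-fed mice has no bar.

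Peaks over the start itself were fewer. In the order SCD and HFD, 2 and 3 of the 10 genes had one for H3K9me2 in BAT (37.2% and 33.5% of all genes), and 2 and 3 for H3K9me3 in BAT (46.8% and 50.3%). In WAT there were 3 and 2 for H3K9me2 (45.4% and 31%) and 0 and 2 for H3K9me3 (9.75% and 26.4%). Only Abhd5 and Plin5 had a covered start in at least 6 lists, as 24.7% of all genes did.

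**Figure D2:**
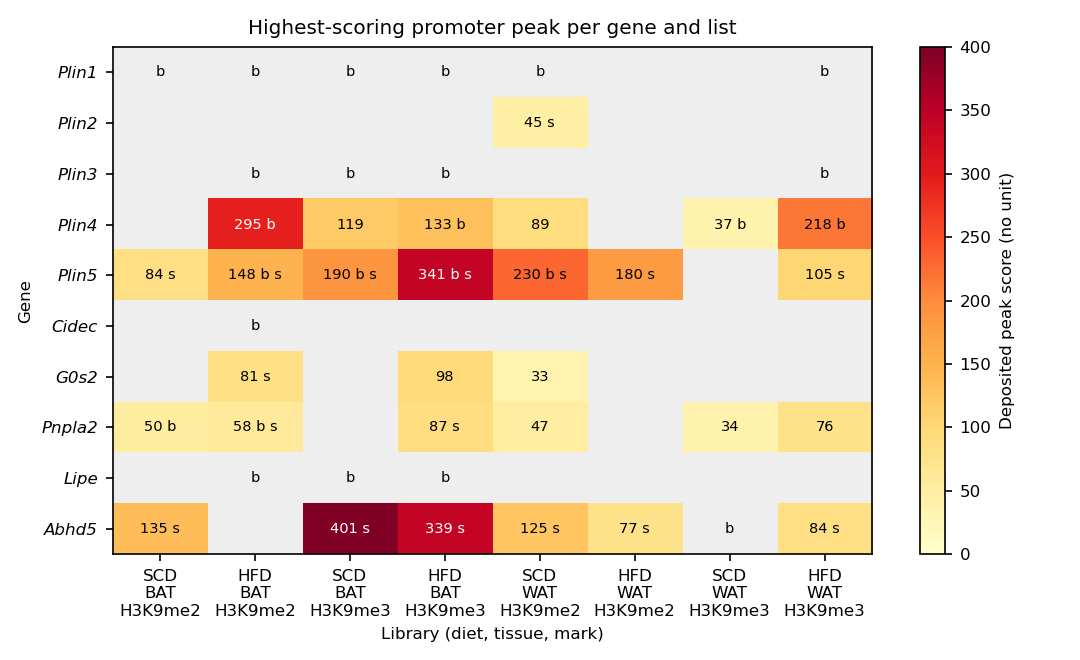
Each cell gives the score of the highest promoter peak of a gene (rows) in a library (columns), darker for higher scores, with s for a peak over a start and b for a peak in the gene body outside the promoter. Grey cells had no promoter peak. Abhd5 and Plin5 fill 6 and 7 cells with covered starts, and Plin1, Plin3, Cidec and Lipe have only b.

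The members were next read one by one, beginning with the droplet coat. Plin5 (chr17:56251024-56257019, minus strand) codes for the perilipin of tissues with high fat oxidation. Its start lay under a peak in 7 of the 8 lists. In BAT the score of this peak was 76.2 on SCD and 84.8 on HFD for H3K9me2, and 136 on SCD and 195 on HFD for H3K9me3. In WAT it was 41 on SCD and 69.5 on HFD for H3K9me2, and for H3K9me3 no peak was listed on SCD and one with a score of 105 on HFD. The HFD score was thus the higher one in all 3 pairs with both diets, but scores of different libraries share no scale, and within their own lists these peaks stood near the middle, from the 32.2 to the 73.7 percentile. The peak of WAT H3K9me3 on HFD was the widest of them at 2020 bp, wider than 97.5% of its list, whereas the others spanned 555 to 941 bp.

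A second set of 7 peaks in the 3 kb before the Plin5 start had scores above those of the start in 6 of the 7 lists. It lay at about -3.44 to -1.72 kb, over coding exon and UTR of the neighbouring gene Lrg1, and counts equally as a promoter peak of Lrg1. In BAT its score was 83.6 on SCD and 148 on HFD for H3K9me2, and 190.05 on SCD and 341 on HFD for H3K9me3. In WAT it was 229.9 on SCD and 180.3 on HFD for H3K9me2 and 64.6 on HFD for H3K9me3, with no peak on SCD. The list in which the start peak had the higher score was WAT H3K9me3 on HFD. Behind the start, at about 0.77 to 1.51 kb, a further peak was listed for H3K9me2 in BAT on HFD (53.8), for H3K9me3 in BAT on HFD (85) and for H3K9me2 in WAT on SCD (63.9). The pattern of 7 lists seen for Plin5 was shared by 2396 other protein-coding genes.

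Plin4 (chr17:56240014-56249225, minus strand), which encodes the longest perilipin, follows Plin5 on the same strand. No list had a peak over its start. It was counted at the promoter in 6 lists through peaks at 3 different places. The first lay upstream, at -3.63 to -2.09 kb, over the last coding exon of Plin5, with scores of 97.7 for H3K9me2 in BAT on HFD, 119 and 133 for H3K9me3 in BAT on SCD and HFD, and 89.3 for H3K9me2 in WAT on SCD. It belongs to both genes by position. The next, at 0.73 kb behind the start, was found only for H3K9me3 in BAT on HFD with a score of 62.1.

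The third place was inside Plin4, at 2.36 to 5.81 kb behind its start, and held the strongest and widest peaks of the gene. For H3K9me2 in BAT on HFD the peak had a score of 295 and spanned 3444 bp, above 97.8% of its list in score and 99.5% in width. For H3K9me3 in WAT on HFD it had a score of 218 and spanned 2889 bp, above 94.8% and 99.4% of its list. The other peaks of this place were narrower. For H3K9me3 in BAT on HFD the score was 51.6 over 473 bp, at the 3.29 percentile of its list in score and 8.16 in width. For H3K9me3 in WAT on SCD it was 36.7 over 513 bp, at the 40.3 and 39.5 percentile of its list. No peak was listed there for H3K9me2 in BAT on SCD, for H3K9me3 in BAT on SCD or for H3K9me2 in WAT on either diet. So both wide peaks came from HFD-fed mice, but from different marks in the 2 tissues.

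This place is made of 2 large coding exons of 1258 bp and 2106 bp that consist of repeats. Shifted by 99 bases against itself, the shorter exon matched at 73.9% of its bases and the longer at 62.4%, beside medians of 25.3% and 25.2% at other shifts. Of the peaks, 80.9% of the bases for BAT H3K9me2 on HFD, 79.4% for WAT H3K9me3 on HFD, 99.8% for BAT H3K9me3 on HFD and 100% for WAT H3K9me3 on SCD lay in these 2 exons. The authors removed reads that mapped to more than 1 site, and how many reads of the repeats remained is not known here, so its part in the presence or width of these peaks was not tested. Neighbouring units of the shorter exon are printed from the mm9 reference to show how alike they are, unit 1 at chr17:56245748-56245846 and unit 2 at chr17:56245649-56245747, both on the minus strand, with capitals at the 16 bases at which unit 2 differs from unit 1.
Plin4 unit 1: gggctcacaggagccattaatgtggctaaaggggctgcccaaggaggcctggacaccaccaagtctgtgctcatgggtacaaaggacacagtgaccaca
Plin4 unit 2: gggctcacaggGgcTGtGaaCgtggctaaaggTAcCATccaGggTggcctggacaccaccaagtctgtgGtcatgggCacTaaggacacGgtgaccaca
The next unit, at chr17:56245550-56245648, had the same letters as unit 2. With 0 CG in unit 1 and 2 in unit 2, this is not CG-rich sequence of the kind seen at the start of Abhd5.

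**Figure D3:**
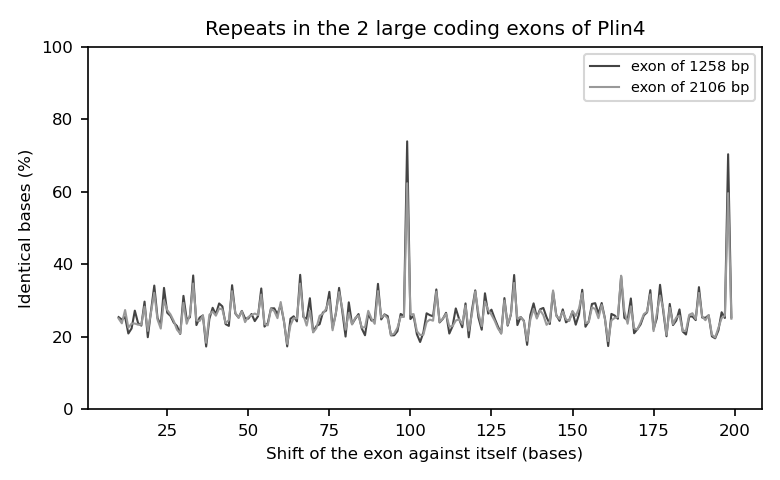
Share of identical bases (%) when each large coding exon of Plin4 is shifted against itself, by shift in bases, with a dark line for the exon of 1258 bp and a light line for that of 2106 bp. Both lines peak at a shift of 99 bases, at 73.9% and 62.4%, and again at its next multiple.

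Plin1 (chr7:86866050-86877662, minus strand), the main coat protein of fat cell droplets, had no promoter peak but a recurring peak at its far end, at 10.8 to 11.6 kb behind the start. Its score for H3K9me2 was 102 in BAT on SCD and 99.4 in WAT on SCD, with no such peak on HFD in either tissue. Its score for H3K9me3 was 303 in BAT on SCD, 79.2 in BAT on HFD and 99.9 in WAT on HFD, with none in WAT on SCD. The H3K9me2 peak was thus listed on SCD only in both tissues. The H3K9me3 peak was listed on both diets in BAT and on HFD only in WAT. In BAT it stood at the 76.7 percentile of its list on SCD and the 35.4 percentile on HFD. The region lies over the last coding exon and the UTR, and the 652 bp common to all 5 lists had 49 CG and a GC content of 64.7%. A weaker peak at 5.86 to 6.67 kb was listed for H3K9me2 in BAT on HFD (51.6) and in WAT on SCD (35.5).

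Plin2 (chr4:86294290-86315964, minus strand), the widely expressed droplet coat protein, had 1 peak in all, over its start, in WAT H3K9me2 on SCD. Its score of 44.6 was under the lowest score of 6 of the lists, and the peak is lost when a score of 50 is required. Plin3 (chr17:56418385-56429934, minus strand), a coat protein of small droplets, had none at its promoter. In its body a peak at 3.69 to 4.77 kb was listed on HFD only, with scores of 78 for H3K9me2 in BAT, 76.5 for H3K9me3 in BAT and 55.2 for H3K9me3 in WAT. Other single peaks of Plin3 lay at 8.64 kb in BAT H3K9me2 on HFD (55.9) and at 10.3 kb in BAT H3K9me3 on SCD (68.6), the latter within 3 kb of a start of Ticam1. For Cidec (chr6:113374628-113385754, minus strand) a single peak was found, in BAT H3K9me2 on HFD, at 10 to 11 kb behind the start over its last coding exon, with a score of 118. Its start had no peak in any list.

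**Figure D4:**
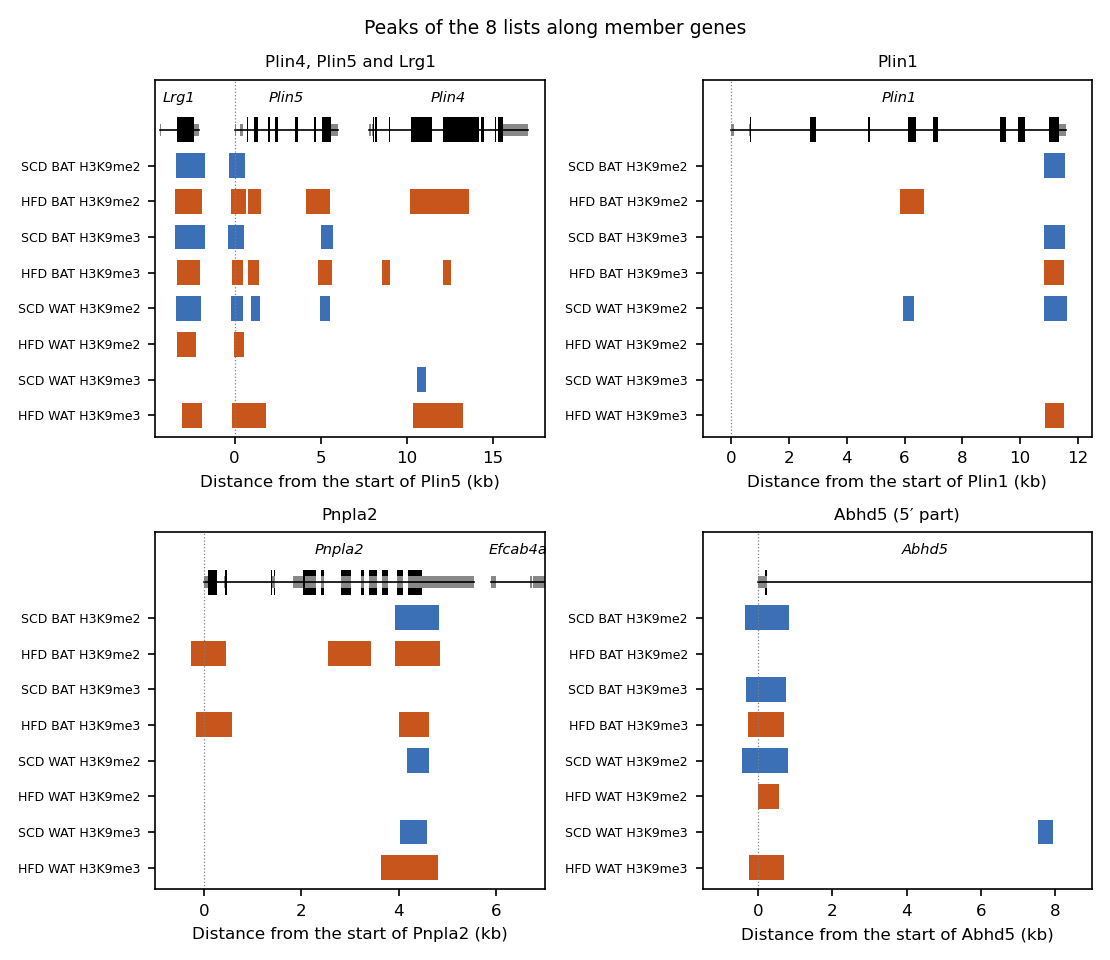
Peaks of the 8 lists (blue SCD, orange HFD) along Plin5 with its neighbours Lrg1 and Plin4, Plin1, Pnpla2 and the 5′ part of Abhd5, by distance from the start in kb, with coding exons in black and UTRs in grey. Plin5 and Abhd5 have peaks at the dotted start line in 7 and 6 lists, Plin1 has peaks of 5 lists at its end, and both wide peaks of Plin4 come from HFD lists.

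Among the lipolysis genes, Abhd5 (chr9:122260726-122290642, plus strand), which encodes the ATGL coactivator, had its start covered in 6 lists by peaks that all began and ended within -0.44 to 0.82 kb. For H3K9me3 in BAT the score was 401 on SCD and 339 on HFD. For H3K9me2 in BAT it was 135 on SCD, and no peak was listed on HFD. Between the same lists the share of covered starts among all genes with 15 or more CG in the promoter window was 61.2% on SCD and 45.4% on HFD. In WAT it was 125 on SCD and 76.8 on HFD for H3K9me2, and 83.7 on HFD for H3K9me3 with no start peak on SCD. The H3K9me3 peaks in BAT ranked at the 78.8 and 65.5 percentile of all genes with a promoter peak on SCD and HFD, so high scores at this start were not rare among promoters. The 583 bp common to the 6 lists had 90 CG and a GC content of 76.5%. A weak intron peak with a score of 32 at 7.56 kb in WAT H3K9me3 on SCD was the only other peak of this gene.

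Pnpla2 (chr7:148641097-148646642, plus strand), the ATGL gene, had a promoter peak in 6 lists. Its main start was covered on HFD in BAT alone, with scores of 55.4 for H3K9me2 and 86.9 for H3K9me3. A peak over the last coding exon, at 3.63 to 4.85 kb, was more frequent. Its score was 50.1 on SCD and 57.5 on HFD for H3K9me2 in BAT and 82.9 on HFD for H3K9me3 in BAT. In WAT it was 47.4 on SCD for H3K9me2, 34.4 on SCD for H3K9me3 and 75.9 on HFD for H3K9me3. The peak was thus listed in 6 lists, with scores at the 0.133 to the 50 percentile of its own list. The 50.1 of BAT H3K9me2 on SCD stood next to the lowest score of that list. This place counts as promoter because some annotated starts of Pnpla2 lie inside the gene, and it is also within 3 kb of a start of Efcab4a. A peak at 2.55 kb with a score of 53.3 was found in BAT H3K9me2 on HFD only. The pattern of lists of Pnpla2 was found in 36 other genes.

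G0s2 (chr1:195098355-195099382, minus strand), the gene of the ATGL inhibitor, is 1.03 kb long and was covered over most of its length where a peak was listed. The score was 81.4 for H3K9me2 and 98.1 for H3K9me3 in BAT on HFD, and 33 for H3K9me2 in WAT on SCD, and no other list had a peak. Only the first of these reached over the start, from -0.51 to 0.945 kb. For Lipe (chr7:26164546-26183729, minus strand), the hormone-sensitive lipase gene, there was no promoter peak at any of its 4 annotated starts. Its end, at 17.9 to 19 kb over the last coding exon and UTR, had a peak of H3K9me3 in BAT with scores of 70 on SCD and 78 on HFD. A peak at 13 to 14.4 kb in BAT H3K9me2 on HFD (58.9) overlapped coding exons of both Lipe and 4732471J01Rik.

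The diets were then compared by gene within each tissue and mark. For H3K9me2 in BAT, Abhd5 had a promoter peak on SCD only (11.5% of all genes), Plin4 and G0s2 on HFD only (13.8%), Plin5 and Pnpla2 on both (31.8%) and the other 5 on neither (43%). For H3K9me3 in BAT, 0 were on SCD only (2.16%), G0s2 and Pnpla2 on HFD only (8.83%), Plin4, Plin5 and Abhd5 on both (50.1%) and 5 on neither (38.9%). For H3K9me2 in WAT, Plin2, Plin4, G0s2 and Pnpla2 were on SCD only (18%), 0 on HFD only (2.63%), Plin5 and Abhd5 on both (36.7%) and 4 on neither (42.7%). The first of these counts rested on the lower score limit of the SCD list, and with scores of 50 or more Plin4 was the one gene left in it. For H3K9me3 in WAT, 0 were on SCD only (6.89%), Plin5 and Abhd5 on HFD only (23.9%), Plin4 and Pnpla2 on both (12%) and 6 on neither (57.2%). At a score of at least 50, all 4 of these genes had the peak on HFD only, and 0 on both. At that limit 6.96% of all genes had a promoter peak of H3K9me3 in WAT on SCD and 35.9% on HFD. The shares of all genes in the diet classes at that limit are not given here for either mark. G0s2 was the gene whose H3K9me2 and H3K9me3 promoter peaks in BAT were both on HFD only. With equal numbers of highest-scoring peaks per list, G0s2 and Pnpla2 had no promoter peak of H3K9me3 in BAT on HFD, and the count on HFD only was 0.

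The same comparison can be made by peak. A promoter peak of these genes had a counterpart when it overlapped a peak of the other diet by at least 1 bp. For H3K9me2 in BAT this held for 3 of 4 peaks on SCD and 3 of 9 on HFD, beside 66% and 50% of the peaks at all promoters. For H3K9me3 in BAT it held for 4 of 4 on SCD and 4 of 9 on HFD (93.6% and 71.6%), and for H3K9me2 in WAT for 3 of 8 on SCD and 3 of 3 on HFD (53.7% and 90.7%). For H3K9me3 in WAT it held for 2 of 2 on SCD and 2 of 5 on HFD (44.4% and 23.9%). Both lists of a pair had equally many peaks with a counterpart, so the list with more peaks had the lower share by arithmetic. The SCD peaks of BAT H3K9me3 at Plin5, Plin4 and Abhd5 each had an overlapping peak on HFD.

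Outside the promoter windows of their own starts, 9 of the 10 genes have some gene body, all but the short G0s2. In BAT, 2 of the 9 had a body peak of H3K9me2 on SCD (22% of 17329 genes with a body) and 7 on HFD (37.3%), and 4 and 5 had one of H3K9me3 (19.3% and 33%). In WAT the counts were 2 on SCD and 0 on HFD for H3K9me2 (30.4% and 13.4%), and 2 on SCD and 3 on HFD for H3K9me3 (22.8% and 24.6%). The 7 genes with a body peak of BAT H3K9me2 on HFD were Plin1, Plin3, Plin4, Plin5, Cidec, Pnpla2 and Lipe. This list also held 43173 peaks, and the part of its number of peaks in the count was not tested.

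Merged over the lists, the peaks at these genes made up 20 regions, of which 18 touched a coding exon, beside 44.3% of the 53622 regions merged in the same way at all protein-coding genes. Among the 18, the region before the Plin5 start touched a coding exon of its neighbour Lrg1 only. The 10 genes are 1.03 to 29.9 kb long, at the 9.04 to 67.1 percentile of gene length. Longer genes can hold more regions, and the part of gene length in this difference was not tested. Both marks were listed in 10 of the 20 (48.8% of all regions), both tissues in 10 (45.4%) and both diets in 10 (44.8%). A further 7 were in HFD lists only (35.9%), 4 of them in the BAT H3K9me2 list alone (15.1%), and 3 were in SCD lists only (19.3%). By tissue, 8 were in BAT only (33%) and 2 in WAT only (21.5%). Read against these shares, the split by diet and by mark was near the background. By mark, Plin2 and Cidec had 1 peak each, of H3K9me2. Each of the other 8 genes had peaks of both marks, not always at the same place, tissue or diet. The share of all genes with peaks of both marks is not given here. Of the 20 regions, 7 were in 4 or more lists (30.2% of all regions). Those in 7 lists were the start of Plin5 and the Lrg1 side of it.

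Several of the body peaks lay at the end of the coding sequence. In 7 genes the last coding exon is outside the promoter windows of the gene's own starts. Of these, 5 had a peak over it in at least 1 list (Plin1, Plin3, Plin5, Cidec and Lipe), compared with 17.5% of 14585 such genes. The peaks over this exon in Plin5 and Plin3 were also within 3 kb of a start of Plin4 and Ticam1, respectively. By list the count of genes with such a peak was 1 on SCD and 2 on HFD for H3K9me2 in BAT (4.91% and 12.1% of such genes). It was 4 and 3 for H3K9me3 in BAT (4.66% and 8.89%). In WAT it was 2 and 0 for H3K9me2 (7.33% and 2.44%) and 0 and 1 for H3K9me3 (3.44% and 5.1%). These 5 exons had a GC content of 61.2% to 70.2%, beside a median of 51.4% over the last coding exons of all such genes. The exons without a peak had 62.9% in Plin4, inside that range, and 51.7% in Abhd5, and the part of the base composition in the peaks was not tested. With promoter windows included, Pnpla2 and G0s2 had such a peak too, which makes 7 of 10 genes (22% of all genes). This measure was chosen after the positions had been seen.

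At the starts, the number of CG dinucleotides in the 300 bases of the promoter window was set beside the lists. It was 30 in Abhd5, 19 in Pnpla2, 13 in Plin5 and G0s2, 10 in Plin2, 9 in Plin3, 7 in Plin4, 6 in Cidec, 2 in Plin1 and 1 in Lipe. The 5 genes with a peak over this start in any list were the 5 with the most CG, although the order among them was not that of the lists, since Plin5 had 7 lists and Pnpla2 2. An inner start of Lipe, 2.72 kb behind the first, had 19 CG and no peak in any list. Over all protein-coding genes, a covered start was listed for 2.4% of the windows with 0 to 4 CG, 25.3% of those with 5 to 14 and 79.8% of those with 15 or more in BAT H3K9me3 on SCD, and for 0.731%, 11.1% and 51.8% in WAT H3K9me2 on HFD. In WAT H3K9me3 on SCD the shares were 2.46%, 7.09% and 11%. The share of covered starts was higher in each class with more CG in all 8 lists, but in the last of these lists few CG-rich starts were covered.

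**Figure D5:**
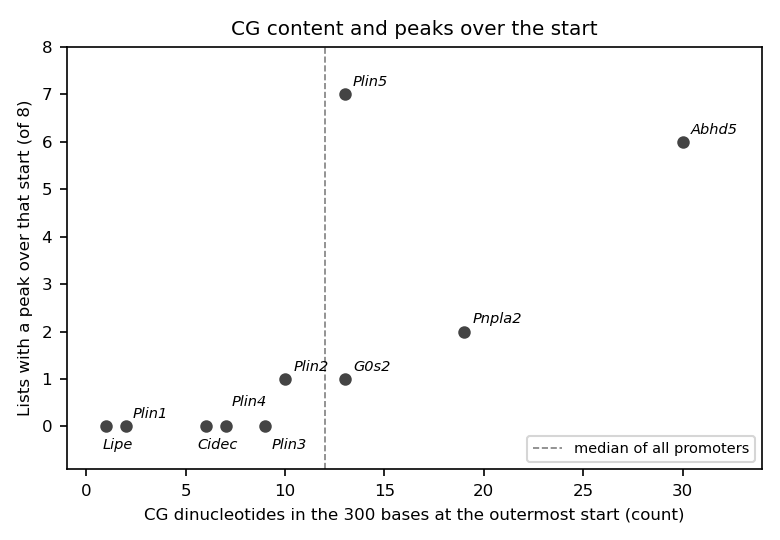
Number of lists (of 8) with a peak over the outermost coding start against the number of CG dinucleotides in the 300 bases around it, with 1 point per gene and a dashed line at the median of 12 of all promoters. Abhd5 with 30 CG has 6 lists and Plin5 with 13 has 7, and the 5 genes with 9 or fewer CG have 0.

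Of the short motifs searched on both strands in these windows, GGGCGG, the core of GC boxes, was present in Plin2, Plin3, Plin5, G0s2, Pnpla2, Lipe and Abhd5 and in 43.9% of all windows. CACGTG, an E-box, was present in Plin2 alone of the 10 genes and in 7.78% of all windows. TATAAA was present in none of the 10 and in 13.4% of all, and a direct repeat of AGGTCA spaced by 1 base in none and in 0.0581% of all. GGGCGG holds a CG itself and so overlaps with the CG count, as does CACGTG.

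The 16 other lipid droplet genes listed for comparison, among them droplet fusion, growth and triglyceride-forming factors, split between the diets as follows. For H3K9me2 in BAT, 1 had a promoter peak on SCD only (Rab18, score 97.97), 5 on HFD only (Aup1 92.8, Pnpla3 65.2, Cidea, Fitm2 and Bscl2), 2 on both and 8 on neither. For H3K9me3 in BAT, 1 was on SCD only (Bscl2, 63.8), 6 on HFD only with Pnpla3 (322) and Cidea (132) the highest, 5 on both and 4 on neither. Cidea, a relative of Cidec abundant in brown fat, and Pnpla3, a relative of Pnpla2, were thus on HFD only for both marks in BAT. The share of all genes with this joint pattern is not given here, nor is the result for these genes with equal numbers of peaks. For H3K9me2 in WAT, 4 were on SCD only (Pnpla3 147, Faf2 80.05, Fitm1 and Bscl2), 2 on HFD only (Aup1 117 and Rab18 73.2), 5 on both and 5 on neither. For H3K9me3 in WAT, 1 was on SCD only (Cav1, 40.7), 4 on HFD only (Cavin1 105, Aup1 88, Fitm1 and Acsl3), 0 on both and 11 on neither. The score of Cav1 was under the lowest score of 50 of the HFD list, so a peak of that score could not be listed there. The split of these 16 genes at a score of at least 50 is not given here. The shares of all genes in these classes are those given above for the diets. The genes named here without a score are those outside the rule on scores, named after the values were seen.

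The 28 genes of the control of lipolysis, from adrenergic receptors over protein kinase A to insulin signaling, had promoter peaks on both diets in 7 to 23 cases, depending on tissue and mark. In BAT, 17 of 28 had one of H3K9me2 on both diets (31.8% of all genes) and 23 one of H3K9me3 (50.1%). On SCD only was Pde3b for H3K9me2 (401), the phosphodiesterase through which insulin lowers lipolysis, and 7 were on HFD only, with Akt1 (228) and Adora1 (210.2) the highest. For H3K9me3 in BAT, 0 were on SCD only and 2 on HFD only (Adora1 107 and Abhd6 86.05). In WAT, 21 had H3K9me2 on both diets (36.7%), 3 on SCD only (Akt1 98.9, Abhd6 42.8 and Aqp7) and 0 on HFD only. The score of Abhd6 was under the lowest score of 50 of the HFD list, so a peak of that score could not be listed there. The split of these 28 genes at a score of at least 50 is not given here. For H3K9me3 in WAT, 7 were on both (12%), 9 on neither (57.2%), 0 on SCD only and 12 on HFD only (23.9%), with Irs1 (178) and Mgll (166), the monoglyceride lipase of the last step, the highest. Fabp4, the fatty acid carrier of fat cells, and Npy1r had a promoter peak in no list.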

How the data were processed

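ChIP-seq peaks of H3K9me2 and H3K9me3 were analysed in 8 libraries of BAT and WAT from SCD-fed and HFD-fed mice, grouped by the library labels. Per the methods, the authors used Trim Galore for trimming and Bowtie2 2.4.2 for alignment to mm9, discarded multiply mapped reads and used MACS2 for peak calling. The deposited score, the only value per peak, has no stated unit and was used as given, to rank peaks within a list. Fixation was with 1% formaldehyde for 8 min. Depth is unknown, so no interval is given. Columns of other samples numbered 0.

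Genes came from GENCODE vM1 on NCBIM37, whose chromosome lengths were those of mm9, with 70064 annotated starts. An overlap of at least 1 bp placed a peak in a promoter (3 kb to each side of a start) or gene body. With 1 library per group no test was made, and the share over all protein-coding genes is given as background. The 10 members were named throughout, and of the related lists up to 2 genes per tissue, mark and diet with the highest score among promoter peaks of 1 diet only. The symbols of 4 listed genes (Hilpda, Ldah, Cavin1 and Adgre1) were matched through older names. Members and lists were chosen with earlier results of these data known, and the last coding exons, CG classes and Plin4 repeats were taken up after positions had been seen. Alternatives were lowest scores of 50 and 80, the 21976 highest peaks of each list, 1 kb promoters, 1 start per gene, peak midpoints, merging within 1 kb, whole genes, a reciprocal overlap of 50% and, chosen after seeing the data, gene bodies among the counterparts.

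Calculations used Python 3.11.15, NumPy 2.4.6, pysam 0.24.0 and matplotlib 3.10.9. On simulated data, promoter peaks placed at 2000 of 22350 genes were recovered at all 2000, and 0 calls differed from bedtools 2.31.1.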

Additional observations from a re-analysis of the deposited data

Results flagged for a closer look

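For H3K9me2, the promoters of Plin4 and G0s2 had opposite diet classes in the tissues, with a peak on HFD only in BAT and on SCD only in WAT. At Plin4 the scores were 294.99 in BAT and 89.33 in WAT. The peak with the first score lay in the repeat exons of Plin4 and the peak with the second over the end of Plin5, so the gene and not the position was shared, although BAT on HFD also had a peak of 97.73 at the latter place. With promoters of 1 kb, Plin4 had a promoter peak in neither of these lists, and its opposition was gone. At G0s2 the scores were 81.38 in BAT and 33.02 in WAT, and the WAT peak is absent at a score of at least 50. The difference between the tissues was not tested, since each rests on 1 library per diet. The same opposition was found at 1073 genes, or 4.79% of all protein-coding genes, and its reverse at 138, or 0.617%. The H3K9me2 lists held 24887 peaks on SCD and 43173 on HFD in BAT, and 40013 on SCD and 21976 on HFD in WAT. The part of these numbers and of the lower score limit of the WAT list on SCD in the 2 shares was not tested.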

How the results depend on the processing

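No paired analysis was possible because each diet, tissue and mark had a single library, so no library could be left out either. Of 180 counts recomputed under the alternatives, 143 were within 1.5 times the reported count and 37 were not. Merging peaks within 1 kb and counting gene bodies among the counterparts moved none beyond it. Part of the counts could not change. In 6 lists every score was at least 50, the 21976 highest peaks were the whole list of WAT H3K9me2 on HFD, and merging removes no promoter overlap. The 143 is therefore no measure of how stable the counts are. Shares of all genes in the diet classes under the alternatives are not given. At a score of at least 50, promoter peaks in WAT on SCD were found at 3 genes for H3K9me2 and 0 for H3K9me3, SCD only in WAT H3K9me2 fell to 1 gene, HFD only in WAT H3K9me3 rose to 4 and both to 0, body peaks in WAT H3K9me3 on SCD were at 0 genes, and counterparts in WAT H3K9me3 were 0 on either diet. At a score of at least 80, promoter counts were 3 in WAT H3K9me2 on SCD, 1 in it on HFD and 0 in WAT H3K9me3 on SCD, SCD only in WAT H3K9me2 was 2, and both was 1 in BAT H3K9me2, 1 in WAT H3K9me2 and 0 in WAT H3K9me3. With equal numbers of peaks, promoter counts were 3 in BAT H3K9me3 on HFD and 3 in WAT H3K9me2 on SCD, both was 1 in BAT H3K9me2, HFD only was 0 in BAT H3K9me3 and SCD only was 1 in WAT H3K9me2. With promoters of 1 kb, the counts were 0 in WAT H3K9me3 on SCD and 2 on HFD, both was 1 in BAT H3K9me2 and 0 in WAT H3K9me3, and SCD only was 2 in WAT H3K9me2. With 1 start per gene, both was 1 in BAT H3K9me2 and 1 in WAT H3K9me3, and the promoter count was 1 in WAT H3K9me3 on SCD. With midpoints, the last 2 of these were also 1 and 1. Over whole genes with their promoters, peaks were at 4 genes in BAT H3K9me2 on SCD, 8 in BAT H3K9me3 on HFD, 7 and 2 in WAT H3K9me2 on SCD and HFD, and 6 in WAT H3K9me3 on HFD. With a reciprocal overlap of 50%, counterparts in WAT H3K9me3 were 0 on both diets. Causes were not tested, beyond what each setting removes. The unknown depth and the lower score limit of the WAT lists on SCD limit every statement that a peak is missing or present on 1 diet only.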
